A study of Saccharomyces cerevisiae with 24 samples.

Results

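Binding of Myc-tagged Yrr1 with the amino acid change I775E was compared with binding of the Yrr1 allele of strain YJM789 in budding yeast (Saccharomyces cerevisiae) exposed to 4-nitroquinoline-N-oxide (4NQO). The comparison used 6 of the 24 libraries, chosen by the allele and the medium on their labels. The first group was 3 chromatin immunoprecipitation (ChIP) libraries of S96-I775E, the YRR1 allele of strain S96 in which one isoleucine is replaced by glutamate (I775E). The second was 3 ChIP libraries of the YJM789 allele. Both groups were S96 cells whose own YRR1 gene had been deleted (yrr1Δ) and into which the tagged allele had been brought, so they share the strain background, the tag and the anti-Myc antibody. Both were grown in YPD, a rich medium, with 0.25 µg/ml 4NQO for 2.5 h. The same alleles in YPD alone and the S96 allele in 4NQO, 3 ChIP libraries each, entered as further values. How the YJM789 allele differs in sequence, and which promoter drives the introduced copies, was not stated in the sources used. Each group has 1 input library, so the allele and its input cannot be told apart. The design text speaks of triplicates and the growth protocol of 2 cultures, so the p-values measure only the spread between libraries, which may be technical. A control without the Myc tag was not analysed here.

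Yrr1 is a zinc cluster transcription factor, a fungal family whose members contact DNA through CGG triplets. It takes part in pleiotropic drug resistance, the network by which yeast expels foreign compounds, and among its known targets are SNQ2, SNG1 and its own gene. Snq2 is a membrane pump that exports 4NQO, a compound that forms adducts with DNA bases.

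The measure is the rise: the ChIP minus input coverage score at a region's strongest point, less the mean score of its surroundings. It was deposited for 1711 regions, of which 1350 had enough values to be tested and 361 had not. Read depth is unknown. The background pileup, the coverage that MACS2 takes as its genome-wide level, was inferred from the pileups and folds in the MACS2 lists. It was 38.9 in the 3 S96-I775E libraries and 34.9 in the 3 YJM789 libraries. Across all regions the median rise was 27.1, 25.9 and 26.0 in the S96-I775E libraries, against 32.1, 31.3 and 27.9 in the YJM789 libraries. MACS2 called 52, 33 and 29 peaks in the S96-I775E libraries, against 518, 422 and 30 in the YJM789 libraries. YJM789 replicates 1 and 2 thus stood apart from YJM789 replicate 3, which had as few peaks as the S96-I775E libraries. Results that rest on these libraries are therefore also given without them.

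Of the 4 regions at or near known or candidate Yrr1 sites, those at IRT1 and SNG1 differed between the alleles, and those at SNQ2 and YRR1 did not pass the test. Part of each region's DNA is shown because the 2 pairs held different letters there. The windows, read from the sacCer3 genome on the plus strand with 50 bp to each side of the longer matches, are chrIV:465264-465392 before SNQ2, chrXV:642203-642310 before YRR1, chrX:607299-607407 at the upstream end of IRT1 and chrVII:894431-894539 before SNG1. Capitals mark each match, on either strand, to TCCGCGGA, TCCGNGTAT, TCCGCG or TCCGTG.
SNQ2: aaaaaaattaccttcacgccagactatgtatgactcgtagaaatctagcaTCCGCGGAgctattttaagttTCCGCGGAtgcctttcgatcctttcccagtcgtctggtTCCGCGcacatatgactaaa
YRR1: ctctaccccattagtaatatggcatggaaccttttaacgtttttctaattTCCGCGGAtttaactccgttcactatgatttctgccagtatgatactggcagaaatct
IRT1: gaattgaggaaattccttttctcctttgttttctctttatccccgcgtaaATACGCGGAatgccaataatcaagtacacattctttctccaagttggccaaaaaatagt
SNG1: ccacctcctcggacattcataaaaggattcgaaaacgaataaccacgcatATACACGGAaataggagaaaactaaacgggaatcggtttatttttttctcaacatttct
SNQ2 holds the palindrome TCCGCGGA at chrIV:465314-465321 and chrIV:465335-465342, and YRR1 holds it at chrXV:642253-642260. IRT1 and SNG1 lack it and hold TCCGNGTAT, read here from the other strand, at chrX:607349-607357 and chrVII:894481-894489. These letters were chosen after the values of the 4 regions had been seen, so no test was made of them. Windows of 201 bp around the strongest points of 1341 nuclear regions held TCCGCGGA in 3 (0.224%), at SNQ2, YRR1 and ISU1, against 0.0982% of 60051 windows of that length over the genome. They held TCCGNGTAT in 6 (0.447%), against 0.210% over the genome, at SNG1, IRT1, CST26, KNH1, GCD7 and ISU1. Of these 6, only SNG1 and IRT1 passed the test. The log2 difference of S96-I775E minus YJM789 was -0.18 at CST26, -0.09 at KNH1, 0.23 at GCD7 and -0.69 at ISU1. ISU1, a gene of iron-sulfur cluster assembly, thus holds both, and its rise was 28.7, 24.4 and 102 in the S96-I775E libraries, against 84.6, 97.8 and 37.5 in the YJM789 libraries, with overlap. The shorter TCCGCG, which is part of TCCGCGGA, was in 2.39% of these windows and 1.88% over the genome, and TCCGTG in 4.92% of these windows and 3.58% over the genome.

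At SNQ2 the difference in rise did not pass the test. The region (chrIV:464940-465905) has its centre 497 bp before the SNQ2 start codon, and its rise was 225, 218 and 235 in the S96-I775E libraries, against 236, 273 and 217 in the YJM789 libraries. The groups overlapped, and the means were 226 ± 8.86 for S96-I775E and 242 ± 28.4 for YJM789 (SD, n = 3 each). The log2 difference of S96-I775E minus YJM789 was -0.09 with a standard error of 0.09 (adjusted p = 0.614, limma with Benjamini-Hochberg adjustment over the 1350 regions). Its 95% interval ran from -0.27 to 0.09. Differences here and below are of log2(rise + 1), and a region counts as called below an adjusted p of 0.05. With the library medians set equal the difference was 0.12, and with the rise divided by the background pileup it was -0.25 (adjusted p = 0.067, limma). Without YJM789 replicate 3 it was -0.17. None of these was called. Without YJM789 replicates 1 and 2 the difference was 0.05.

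Before YRR1 itself (chrXV:642006-642721), 371 bp from the start codon and shared with the divergent gene DDP1, which encodes a polyphosphate phosphatase, the rise was lower than at SNQ2. It was 36.7, 43.5 and 42.5 in the S96-I775E libraries, against 48.3, 27.8 and 44.0 in the YJM789 libraries, with overlapping groups. The log2 difference was 0.06 with a standard error of 0.35 (adjusted p = 0.954, limma), and the 95% interval from -0.66 to 0.79 leaves a wide range of differences undecided. Without YJM789 replicates 1 and 2 it was -0.11, also not called. The score was higher both at the site and around it. At the strongest point it was 98.2, 102 and 113 in the S96-I775E libraries, against 85.9, 63.8 and 92.9 in the YJM789 libraries, without overlap. The mean score of the surroundings was 61.5, 59.0 and 70.7 in the S96-I775E libraries, against 37.6, 36.0 and 48.9 in the YJM789 libraries, also without overlap. The strongest point lay at positions 642375, 642480 and 642453 in the S96-I775E libraries, and at 642145, 642074 and 642222 in the YJM789 libraries. The MACS2 summits did not show this order. They overlapped, at 642316, 642395 and 642350 in the S96-I775E libraries and 642455, 642420 and 642318 in the YJM789 libraries. The genome holds only the native YRR1 promoter, so signal there cannot be assigned to the native or to an introduced copy.

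IRT1 had the smallest adjusted p among all regions. IRT1 is a noncoding RNA gene transcribed through the promoter of IME1, the master regulator of meiosis, and the region (chrX:606408-607949) covers its upstream end. The rise was 111, 107 and 155 in the S96-I775E libraries, against 237, 222 and 269.7 in the YJM789 libraries. Every S96-I775E library lay below every YJM789 library. The means were 125 ± 26.7 for S96-I775E and 243 ± 24.4 for YJM789, and the log2 difference was -0.97 with a standard error of 0.11 (95% interval -1.20 to -0.75, adjusted p = 2.1e-06, limma). The call held when YJM789 replicates 1 and 2 were left out, at -1.13 (adjusted p = 0.000286, limma, with the lone YJM789 library assumed to vary like the other groups).

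SNG1 fell by more. Its product is a membrane protein linked to resistance to nitrosoguanidine, and the region (chrVII:893849-894948) lies 258 bp before the SNG1 start codon and is shared with YPP1, an essential gene of endocytic transport. The rise was 55.1, 36.7 and 59.5 in the S96-I775E libraries, against 136, 139.6 and 123 in the YJM789 libraries. The groups stood clear of each other, with means of 50.4 ± 12.1 for S96-I775E and 133 ± 9.05 for YJM789. The log2 difference was -1.41 with a standard error of 0.21 (95% interval -1.84 to -0.98, adjusted p = 0.000192, limma). Without YJM789 replicates 1 and 2 it was -1.29 and lost the call (adjusted p = 0.0717).

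**Figure D1:**
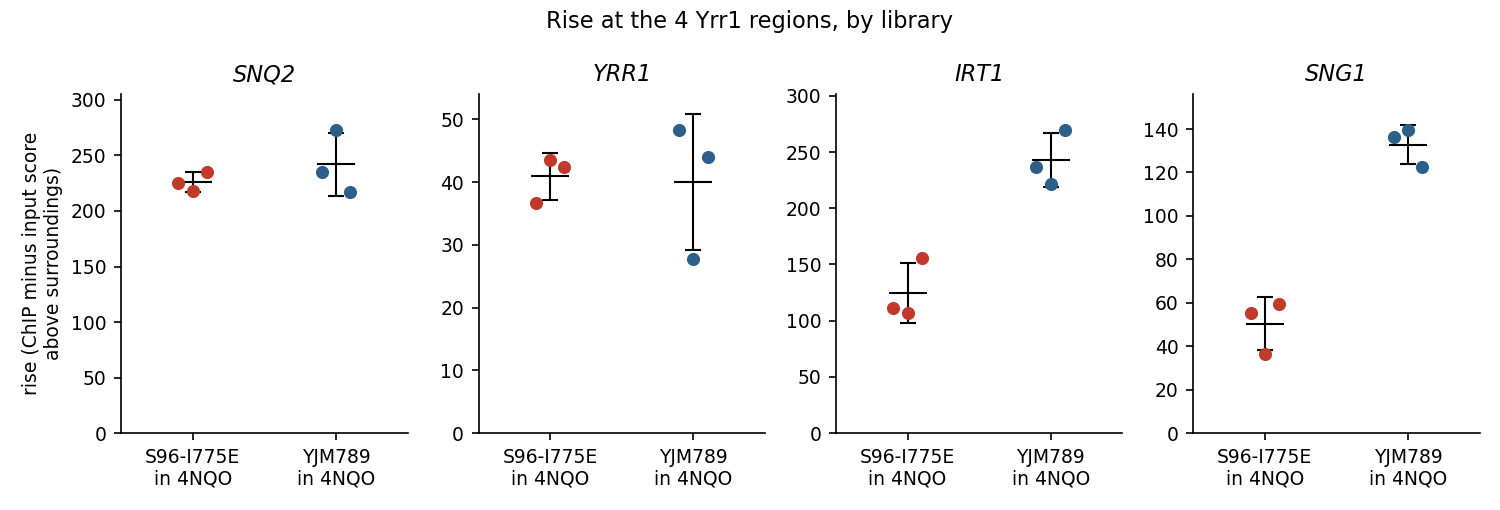
Rise (y axis, from 0, scaled per panel) at the SNQ2, YRR1, IRT1 and SNG1 regions in 4NQO, with 1 point per ChIP library, S96-I775E in red left of YJM789 in blue, and the mean and SD of 3 libraries in black. At IRT1 and SNG1 every S96-I775E point lies below every YJM789 point, and at SNQ2 and YRR1 the groups overlap.

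The MACS2 peaks gave a second reading of the same libraries, and each of the 4 sites had a peak in all 6. MACS2's fold enrichment is the authors' ratio of ChIP pileup to local background. At IRT1 the fold was 2.44, 2.33 and 3.02 in the S96-I775E libraries, against 4.25, 4.32 and 4.59 in the YJM789 libraries. At SNG1 it was 1.95, 1.85 and 1.94 in the S96-I775E libraries, against 2.99, 2.56 and 2.14 in the YJM789 libraries. Both sites were thus lower in S96-I775E without overlap. SNQ2 went the other way on this scale, with folds of 3.80, 3.64 and 3.91 in the S96-I775E libraries, against 3.17, 3.32 and 2.81 in the YJM789 libraries. YRR1 was likewise higher, with folds of 1.98, 2.11 and 2.21 in the S96-I775E libraries, against 1.83, 1.77 and 1.77 in the YJM789 libraries. In all 4 cases a two-sided exact permutation test gave p = 0.1, the smallest that 3 against 3 libraries can give. Under the second deposited parameter set the YRR1 folds overlapped (exact permutation p = 0.2).

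The summit pileup is not divided by local background, and on it SNQ2 and YRR1 behaved differently. At SNQ2 it was 184 ± 8.85 for S96-I775E and 177 ± 13.5 for YJM789 (exact permutation p = 0.5). Divided by the background pileup the order turned, with 4.74 for S96-I775E and 5.07 for YJM789 (exact permutation p = 0.3). That divisor is about the same within each group, so it cannot be told apart from the allele. The SNQ2 site therefore has no direction that holds across the rise, the fold and the pileup. At YRR1 the pileup was 139.5 ± 6.57 for S96-I775E and 106 ± 11.1 for YJM789, without overlap (exact permutation p = 0.1). Under the second parameter set the YRR1 pileup overlapped, at 159.6 for S96-I775E and 137 for YJM789 (exact permutation p = 0.4). At IRT1 it was 113 for S96-I775E and 169 for YJM789, and at SNG1 90.1 for S96-I775E and 121 for YJM789, both without overlap (exact permutation p = 0.1 each).

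**Figure D2:**
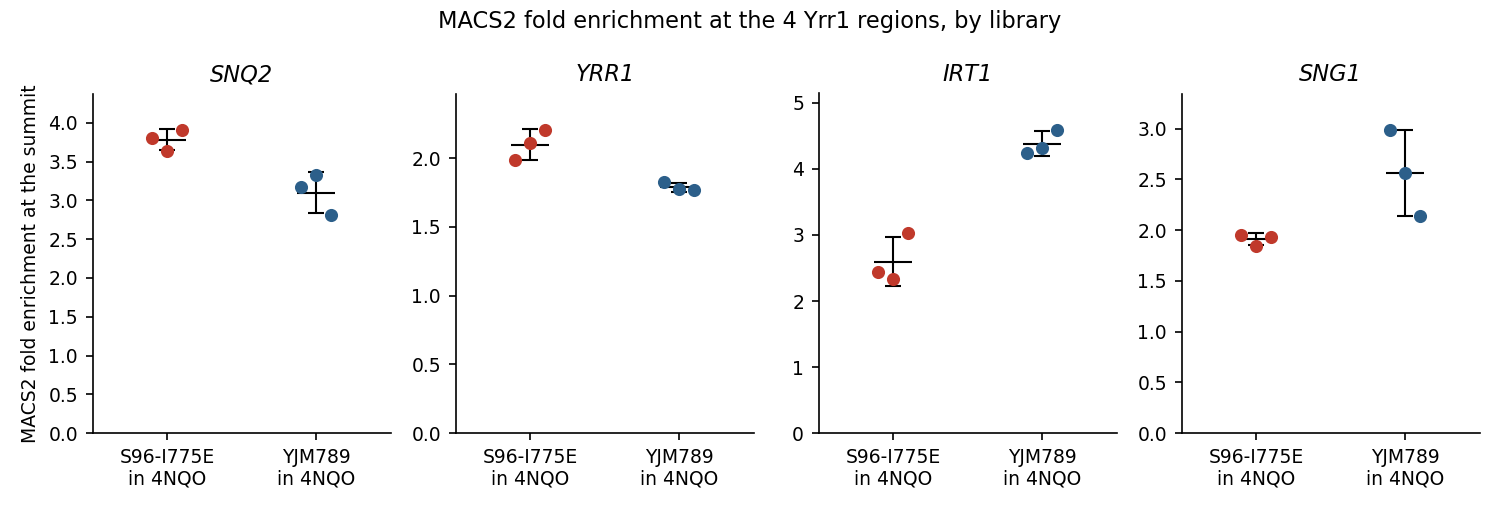
MACS2 fold enrichment at the summit (y axis, from 0, scaled per panel) at the 4 sites in 4NQO, with 1 point per ChIP library, S96-I775E in red left of YJM789 in blue, and the mean and SD of 3 libraries in black. The S96-I775E points lie above the YJM789 points at SNQ2 and YRR1 and below them at IRT1 and SNG1.

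The S96 allele in 4NQO places both alleles against the protein that lacks the I775E change. At SNQ2 the rise was 173 ± 11.7 for S96, and both alleles exceeded it, S96-I775E by a log2 difference of 0.39 (adjusted p = 0.013) and YJM789 by 0.48 (adjusted p = 0.00109, limma for both). At IRT1 S96 had 259 ± 31.9, and S96-I775E was lower by a log2 difference of -1.07 (adjusted p = 1.54e-07, limma). YJM789 differed from S96 there by -0.09 (adjusted p = 0.699). The lower IRT1 value was therefore measured for S96-I775E against either of the other alleles. At SNG1 S96 had 71.8 ± 14, YJM789 exceeded it by 0.90 (adjusted p = 0.0131), and the difference of S96-I775E from S96 was -0.51 (adjusted p = 0.236, limma for both). At YRR1 S96 had 77.7 ± 43.4, and neither difference passed the test, with -0.78 for S96-I775E and -0.85 for YJM789. Each of these comparisons shares libraries with the others. Over all regions, 25 (1.85%) were called for S96-I775E minus S96, 8 lower (0.593%) and 17 higher (1.26%). For YJM789 minus S96 there were 46 (3.41%), 5 lower (0.370%) and 41 higher (3.04%).

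Without the drug, IRT1 was also lower in S96-I775E. The rise in YPD was 98.9 ± 5.09 for S96-I775E and 232 ± 19.0 for YJM789, a log2 difference of -1.22 (adjusted p = 1.59e-08, limma). The difference in 4NQO minus that in YPD was 0.25 (adjusted p = 0.452). At SNG1 the rise in YPD was 54.3 ± 9.29 for S96-I775E and 70.9 ± 9.11 for YJM789, a log2 difference of -0.39 (adjusted p = 0.379, limma). The difference between media at SNG1 was -1.02 with a standard error of 0.30 and did not pass the test (adjusted p = 0.0707, limma). At SNQ2 the YPD difference was -0.24 (adjusted p = 0.139), and at YRR1 it was -0.48 (adjusted p = 0.544).

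The remaining regions of the drug resistance list were not called. The list had 9 tested regions, of which 1, SNG1, was lower and 0 were higher, beside 3.19% lower and 0.667% higher over all 1350 regions. The list had a median log2 difference of -0.09, against -0.18 over all of them. The region between TBS1, a gene for a zinc cluster protein, and APD1 had a rise of 33.3, 51.3 and 57.9 in the S96-I775E libraries, against 35.0, 30.1 and 30.4 in the YJM789 libraries. Its log2 difference was 0.53 (adjusted p = 0.391, limma) and the groups overlapped. Within PDR5, the gene of the main multidrug pump of yeast, the difference was 0.30, and in the nearest region outside it 0.27. It was -0.37 within TPO1, a polyamine exporter gene, and -0.34 within the YRR1 coding sequence.

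Over all 1350 tested regions, 52 (3.85%) were called, 43 (3.19%) lower and 9 (0.667%) higher in S96-I775E than in YJM789. At an unadjusted p under 0.05 there were 272. The log2 difference was negative in 865 regions and positive in 485. As a plain count, the 3 values of S96-I775E lay wholly below those of YJM789 in 224 regions (16.6%) and wholly above them in 75 (5.56%). This split depends on scale: with the library medians set equal, 22 were lower and 25 higher, and the median difference was 0.03 in place of -0.18. The median difference also moved with the libraries that stood apart, to -0.04 without YJM789 replicates 1 and 2. That fit leaves 1 YJM789 library. Calls can be lost there for want of libraries alone, so its counts are not compared. Leaving out 1 library moved the lower count as well: without S96-I775E replicate 1, 2 or 3 it was 21, 12 or 22, and without YJM789 replicate 1, 2 or 3 it was 23, 10 or 86. The calls kept without any 1 of the 6 libraries were 6, namely SNG1, IRT1, TPI1, SPI1, ERC1, a gene linked to ethionine resistance, and YNCG0003C. SNG1 and IRT1 were the 2 calls kept under every other setting too, apart from leaving out YJM789 replicates 1 and 2 together.

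**Figure D3:**
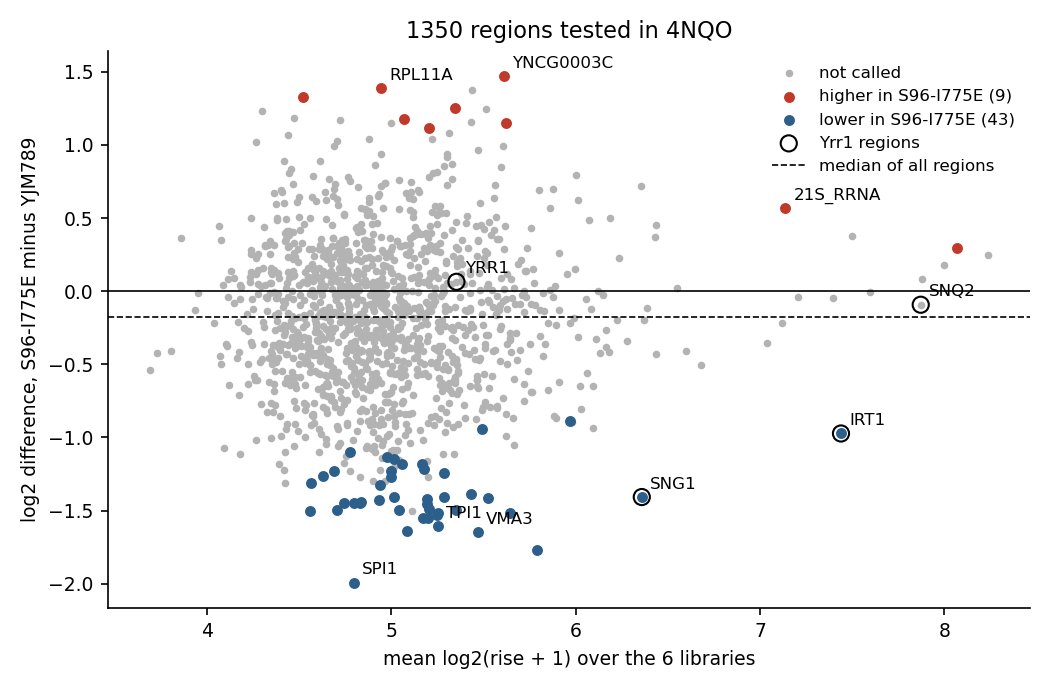
Log2 difference in rise, S96-I775E minus YJM789 in 4NQO, against mean log2(rise + 1) over the 6 libraries for the 1350 tested regions; called regions are coloured and the 4 Yrr1 regions are ringed. IRT1 and SNG1 lie below 0 at high mean rise, SNQ2 and YRR1 lie near 0, and most other lower calls sit at lower mean rise.

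Most of the lower calls were inside genes. Of the 43, 30 lay in gene bodies, 9 in promoters, 1 on tRNA genes and 3 near a gene, and their log2 differences ran from -0.89 to -1.99. In 42 of them the groups did not overlap, the exception being CTF19. All tested regions in gene bodies (748) had a median difference of -0.24, those in promoters (361) -0.14, and those on tRNA genes (120) -0.02. In the YJM789 libraries 14 of the 43 had a MACS2 peak in at least 2 libraries, and in the S96-I775E libraries 2 did, IRT1 and SNG1. Over all 1350 tested regions, 247 had such peaks in YJM789 and 29 in S96-I775E. The peaks come from the libraries that gave the calls, so they are not separate evidence. A peak in all 3 YJM789 libraries was present at HPF1, SNG1 and IRT1.

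The largest lower value was at SPI1, a cell wall protein gene induced by stress. Its rise was 14.6, 14 and 10.6 in the S96-I775E libraries, against 62.4, 57.8 and 44.7 in the YJM789 libraries. The groups were far apart, with a log2 difference of -1.99 (adjusted p = 0.00206, limma), which without YJM789 replicates 1 and 2 was -1.71 (adjusted p = 0.172). TPI1, the gene of the glycolytic enzyme triose phosphate isomerase, had 26.1, 14.5 and 23.9 in the S96-I775E libraries, against 79.5, 70.3 and 50.3 in the YJM789 libraries, a difference of -1.61 (adjusted p = 0.00302, limma). Without YJM789 replicates 1 and 2 that of TPI1 was -1.23 (adjusted p = 0.224). The tRNA pair YNCJ0011W and YNCJ0012W had a difference of -1.77, but turned to 0.86 under the second deposited parameter set and was not called there. TPI1, TDA4, COS2, CYC3 and HPF1 lost the call under that set as well, and SPI1 was not tested in it. Of the 43 lower and 9 higher calls, that set kept 10 and 2, some of the others not being tested there. VMA3, a gene of the vacuolar proton pump, averaged 24.9 ± 8.14 for S96-I775E and 78.9 ± 18.2 for YJM789. HPF1, a gene for a cell wall mannoprotein, averaged 29.4 ± 8.48 for S96-I775E and 87.1 ± 31.3 for YJM789. APA1, BAG7, TDA4, COS2 and CYC3 completed the 10 with the largest lower values, with differences from -1.52 to -1.64. CYC3 encodes the enzyme that attaches heme to cytochrome c. The 10 were picked among calls whose groups did not overlap. Their S96-I775E means lay between 13.1 and 34.8, beside library medians of 25.9 to 27.1 over all regions. At the same 10, the S96 allele in 4NQO had means between 13.9 (SPI1) and 30.6 (CYC3). YJM789 in YPD had means between 17.4 (APA1) and 35.5 (the tRNA pair).

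The other lower calls, named here after their values were seen, came from genes of many kinds. Replication and chromosome segregation were represented by MCM2, a subunit of the replicative helicase, with a rise of 16.5 for S96-I775E and 50.7 for YJM789, and by CTF19, a kinetochore protein gene, with 27.8 for S96-I775E and 69.6 for YJM789. Mitochondrial functions were represented by COQ2, an enzyme of coenzyme Q synthesis, with 13.5 for S96-I775E and 40.5 for YJM789, and by TOM7, of the outer membrane import complex, with 19.5 for S96-I775E and 49.4 for YJM789. ERG27, a sterol synthesis gene, had 25.3 for S96-I775E and 63.0 for YJM789, with MACS2 peaks in 2 YJM789 libraries. PUP2, a proteasome subunit gene, had 22.9 for S96-I775E and 57.2 for YJM789. In the single YJM789 libraries MCM2 had 83.2, 29.8 and 39.1, and PUP2 84.7, 47.6 and 39.3. Of 6 fits without 1 library, the call was kept in 3 at MCM2 and COQ2. It was kept in 2 at CTF19, TOM7 and ERG27, and in 1 at PUP2. Ty reading frames at YJR027W and YMR050C were lower as well, by log2 differences of -1.43 and -1.31, whereas the Ty frame YNL054W-B was higher.

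Of the 9 higher calls, 4 were on tRNA genes, 4 in gene bodies, of which 2 mitochondrial, and 1 in a promoter. Over all 1350 tested regions, 120 were on tRNA genes, and whether the make-up of the higher and lower calls differed was not tested. The histidine tRNA gene YNCG0003C had a rise of 84.4, 77.5 and 79.0 in the S96-I775E libraries, against 28.3, 31.1 and 25.8 in the YJM789 libraries. It was the 1 higher call with MACS2 peaks, in 3 of 3 S96-I775E libraries and 0 of 3 YJM789 libraries, and its log2 difference was 1.47 (adjusted p = 0.0122, limma). Without YJM789 replicates 1 and 2 it was 1.60 and lost the call (adjusted p = 0.185). The other tRNA calls were SUP4, a tyrosine tRNA gene, at 1.33, the glutamate tRNA gene YNCP0004C at 1.25 and the valine tRNA gene YNCG0002C at 1.15. Among genes, RPL11A, which encodes a large ribosomal subunit protein, averaged 49.8 ± 12.7 for S96-I775E and 18.2 ± 2.96 for YJM789, a difference of 1.39 (adjusted p = 0.0289, limma). SHE10 followed at 1.18 and YNL054W-B, a Ty retrotransposon reading frame, at 1.11. The mitochondrial calls were small: 21S_RRNA differed by 0.57 and the COB region, which encodes cytochrome b, by 0.29. At both, MACS2's reverse test called input above ChIP in 3 of 3 libraries of each group. How reads from repeated sequences were placed was not stated in the sources used, and the tRNA genes, Ty elements, COS2 and ASP3-4 among the calls have near copies.

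**Figure D4:**
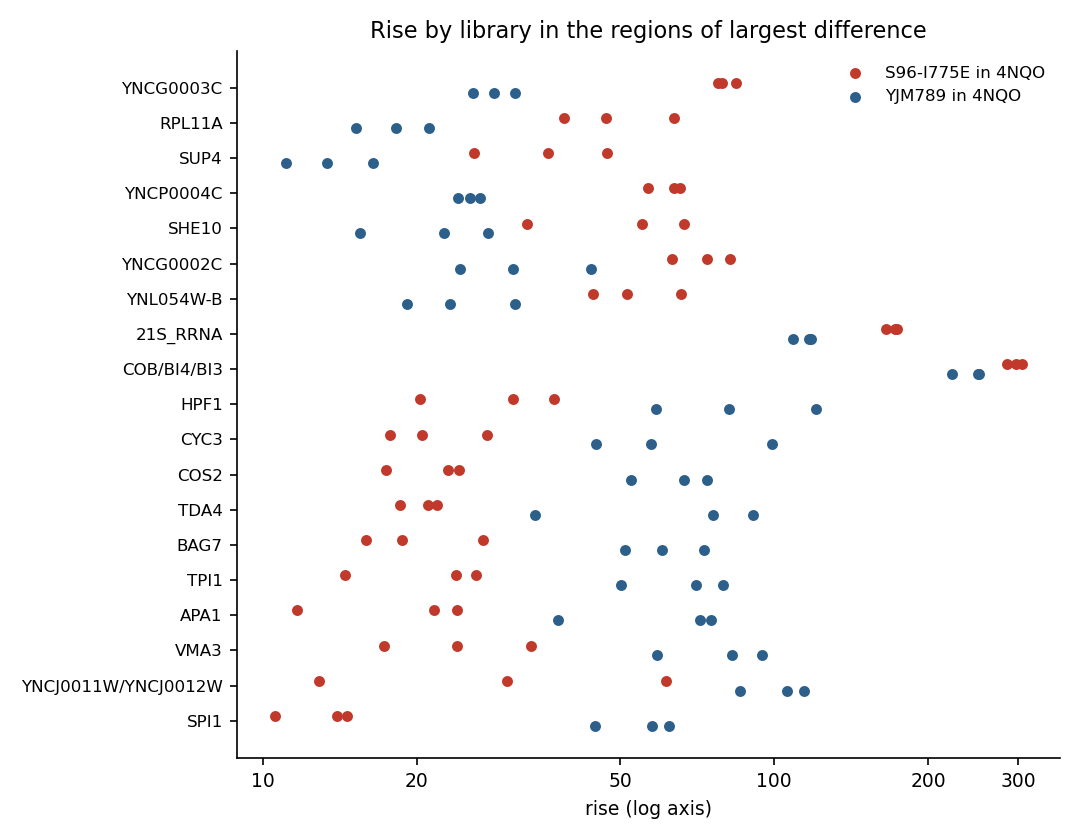
Rise per ChIP library in 4NQO for the 10 lower and 9 higher regions with the largest differences, S96-I775E points in red and YJM789 points in blue, on a log x axis. Only regions without overlap were picked, so in the lower ones the YJM789 points lie to the right of all S96-I775E points. The order is turned in the higher ones.

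The counts per functional list stand beside 3.19% lower, 0.667% higher and a median of -0.18 over all 1350 regions, and no list was tested against the rest. Of 107 tested regions at ribosomal protein genes 6 were lower and 1 higher, with a median log2 difference of -0.30. Among the lower ones were RPL33A at -1.46 and RPL29 at -1.38. Of 24 at glycolysis and fermentation genes 2 were lower, TPI1 and PFK2, and the median was -0.38. PFK2, a phosphofructokinase subunit gene, averaged 45.2 ± 2.23 for S96-I775E and 85.8 ± 20.7 for YJM789 (adjusted p = 0.0323, limma), and MACS2's reverse test called input above ChIP there in 3 of 3 YJM789 libraries. Of 29 at cell wall genes 3 were lower, SPI1, HPF1 and PMT1, a protein mannosyltransferase gene, the last at -1.42, and the median was -0.39. SPI1 was also the 1 lower call among 4 general stress regions (median -0.62). Of 25 at translation and chaperone genes 1 was lower, CDC33, the cap-binding protein eIF4E, at -1.42, with a median of -0.35. The 208 regions at tRNA genes had 3 lower and 4 higher, and a median of -0.03. No region was called among 9 at DNA damage genes (median 0.04), 5 at oxidative stress genes (-0.07) or 13 at sulfur metabolism genes (-0.07), nor among 3 in the ribosomal DNA (-0.23). The 8 mitochondrial regions had 2 higher and a median of 0.27, and the 12 at respiration genes, some of them the same regions, 1 higher and 0.10.

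By MACS2 the YJM789 allele had more bound regions, and 2 libraries carried most of that. A region was counted as bound when at least 2 of 3 libraries had a peak in it, which gave 31 for S96-I775E and 273 for YJM789. Of these 23 were shared, 74.2% of the S96-I775E regions and 8.42% of the YJM789 regions. The peak counts per library did not separate the groups, with means of 38.0 ± 12.3 for S96-I775E and 323 ± 259 for YJM789 (exact permutation p = 0.3, two-sided). With 1 library left out of a group, its regions need a peak in both libraries that remain. Under that rule S96-I775E had 16, 20 or 23 without its replicate 1, 2 or 3, and YJM789 had 21, 22 or 271 without its replicate 1, 2 or 3. Gene bodies made up 11 of the 31 regions in S96-I775E and 199 of the 273 in YJM789, and promoters 10 of 31 in S96-I775E and 48 of 273 in YJM789. Among the 1350 tested regions 748 were in gene bodies and 361 in promoters. The make-up was not counted without YJM789 replicates 1 and 2. At a tRNA gene lay 8 of 31 in S96-I775E and 12 of 273 in YJM789, beside 15.4% of all tested regions (208 of 1350).

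The shared bound regions included all 4 Yrr1 sites and subtelomeric regions. YCL075W, near the left end of chromosome III, had folds of 3.33, 3.01 and 2.62 in the S96-I775E libraries, against 3.81, 4.42 and 3.08 in the YJM789 libraries. YNR077C, on chromosome XIV, had 2.81, 2.79 and 2.47 in the S96-I775E libraries, against 4.23, 4.13 and 2.95 in the YJM789 libraries. The rise differed there by -0.05 and -0.22, neither called. A further 8 regions were bound in S96-I775E and had no peak in any YJM789 library. Of these 6 were at tRNA genes, and YNCG0003C was the 1 called by the rise. The highest of their mean folds, 2.12, was between MIM1 and LAG2, where the rise was 62.3, 60.4 and 44.3 in the S96-I775E libraries, against 37.4, 38.4 and 73.6 in the YJM789 libraries, and the groups overlapped. STE2, the alpha-factor receptor gene, was another, with a mean fold of 1.90. Its rise was 28.7, 18.3 and 42.9 in the S96-I775E libraries, against 43.1, 29.6 and 35.1 in the YJM789 libraries. The groups overlapped, and the log2 difference of -0.32 was not called.

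In some regions the difference between alleles itself differed between the media. The difference in 4NQO minus that in YPD was called in 27 regions, 22 lower (1.63%) and 5 higher (0.370%). The YPD comparison alone called 29 (2.15%), 9 lower and 20 higher (1.48%). With library medians set equal the media difference was called lower in 11 and higher in 7. Counts without YJM789 replicates 1 and 2 in 4NQO rest on 1 YJM789 library there and are not compared. At PFK2 the rise in 4NQO was 45.2 for S96-I775E and 85.8 for YJM789, and in YPD 99.3 for S96-I775E and 38.1 for YJM789, with the 4NQO and the YPD difference both called. MACS2's reverse test called input above ChIP at PFK2 in 3 of 3 YJM789 libraries in 4NQO. EMT1, a methionine tRNA gene, gave 44.5 for S96-I775E and 78.6 for YJM789 in 4NQO, and 76.3 for S96-I775E and 20.4 for YJM789 in YPD, of which the 4NQO difference was not called (adjusted p = 0.146, limma). CDC33 gave 22.8 for S96-I775E and 58.8 for YJM789 in 4NQO, and 57.8 for S96-I775E and 28.2 for YJM789 in YPD, of which the YPD difference was not called (adjusted p = 0.135, limma). The differences between media were -2.25 (adjusted p = 0.00048), -2.79 (adjusted p = 0.00224) and -2.41 (adjusted p = 0.00932, limma for all) in that order. Without YJM789 replicates 1 and 2 in 4NQO those of PFK2 (-2.02) and EMT1 (-2.91) were still called, and that of CDC33 (-2.47) was not. Multicopy DNA was among the 27 without a call in 4NQO, again named after its values were seen. The 2-micron plasmid, a nuclear multicopy circle, had a rise of 147 for S96-I775E and 149.8 for YJM789 in 4NQO, and 84.9 for S96-I775E and 28 for YJM789 in YPD. Of the 208 regions at tRNA genes, 7 were among the lower and 1, before YAP3, among the higher, at 2.16. The 7 include YNCM0023C, with 32.4 for S96-I775E and 54.2 for YJM789 in 4NQO, and 64.6 for S96-I775E and 26.1 for YJM789 in YPD. None of the 4 Yrr1 regions was among the 27.

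**Figure D5:**
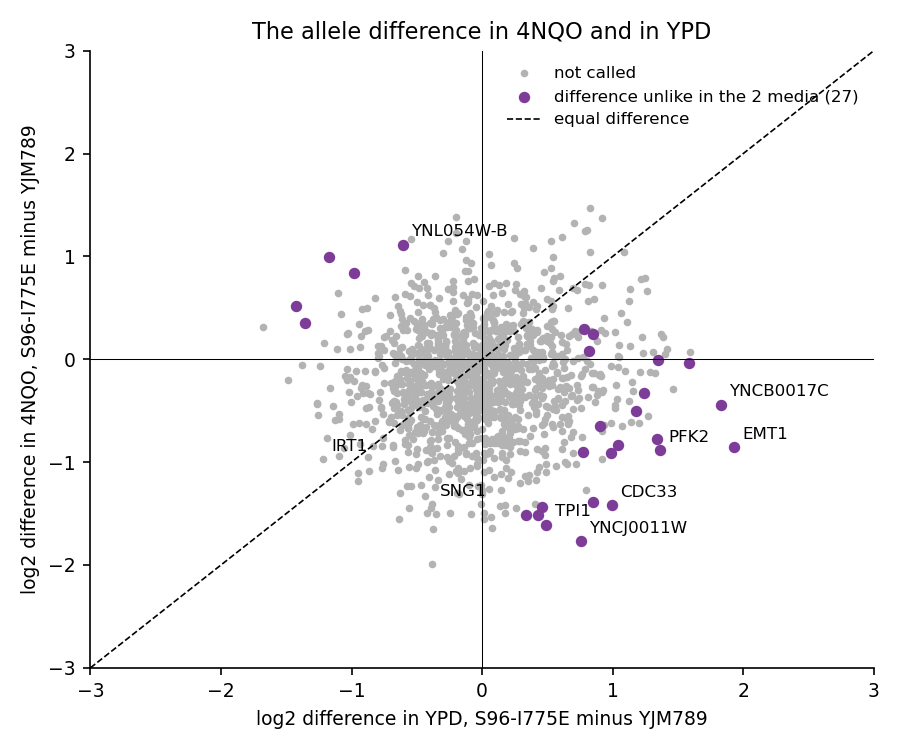
Log2 difference in rise, S96-I775E minus YJM789, in YPD (x) and in 4NQO (y) for the tested regions, with the 27 regions whose difference between media was called in purple and a dashed line of equal difference. IRT1 lies low on both axes, and SNG1 is lower in 4NQO than in YPD without passing the test of that difference.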

How the data were processed

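Anti-Myc ChIP-seq libraries were analysed from the authors' deposited tables. The tools named are CASAVA 1.7, Bowtie2 2.2.3 and MACS2 2.1.0, with the build sacCer3, per the submitters' processing notes, which give neither role nor settings here. Per the file headers, the deposited MACS2 lists give, for each library against its group's input, the pileup signal at the summit, the fold enrichment as a ratio over local background and a −log10 q value, under parameter sets marked mn and m2 without explanation. The deposited region table gives a coverage score (ChIP minus input) at the strongest point and the mean score around it, and their difference, the rise, as a signal, per the file headers. No scaling between libraries is stated. In 4NQO the inferred background pileup was 38.9 in every S96-I775E library and 34.9 in every YJM789 library. The inferred pileup of 1 fragment ran from 0.68 to 0.7975 between these libraries. How far depth enters the rise is therefore unknown. The mn set was used throughout, with m2 as an alternative. The used tables hold 12 further columns of values, which were not used.

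For regions with at least 2 values in each of the 6 ChIP groups, log2(rise + 1) was modelled in limma 3.58.1 (R 4.3.3), using empirical Bayes moderation and a mean-variance trend. The fit held all 18 ChIP libraries with a coefficient per group. The Benjamini-Hochberg adjustment ran over 1350 regions, at a threshold of 0.05. The fit was tested on simulated data. Single values were compared by two-sided exact permutation tests. A region was called a promoter when a start codon lay within 500 bp of its centre, downstream. Bound regions overlapped by at least 1 bp. Genes and sequence came from the RefSeq annotation and genome of the same build. Named were the regions at SNQ2, SNG1, YRR1 and IRT1, the other tested drug resistance regions, the up to 10 called regions of largest difference in each direction whose groups did not overlap, up to 3 called regions per list by p, and the 5 largest called differences between media. ERC1, the motif regions, the further lower calls, the 2-micron plasmid, YNCM0023C, YAP3 and the bound regions outside this rule were named after their values were seen. The members and the lists were chosen with earlier results of these data known. Alternatives covered the pseudocount, scale, filters, library medians, parameter set, the samples fitted, a replicate block and leaving out libraries.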

Additional observations from a re-analysis of the deposited data

Results flagged for a closer look

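In 11 named regions the difference between S96-I775E and YJM789 in 4NQO differed from the same difference in YPD. This was by the limma test of that difference itself, with Benjamini-Hochberg adjustment. Over all 1350 tested regions it called 1.63% lower and 0.370% higher. Of the 11, 5 were named for the size of this difference and the others for their 4NQO difference, which enters it. Their number therefore follows in part from the naming. The values are log2 differences in 4NQO minus log2 differences in YPD. The more negative ones were EMT1 at -2.79, the tRNA pair YNCJ0011W and YNCJ0012W at -2.53, CDC33 at -2.41, the tRNA gene YNCB0017C at -2.27, PFK2 at -2.25, RPL29 at -2.24 and TPI1 at -2.10. CYC3 had -1.94, HPF1 -1.85 and the COB region -0.49, and YNL054W-B was the positive one at 1.72. EMT1 and PFK2 were past the threshold under every alternative run for this test. The others lost it under at least 1 alternative. At PFK2 the rise was called higher in S96-I775E than in YJM789 in YPD and lower in 4NQO. The 4NQO call was kept in 1 of 6 fits without 1 library, and lost with library medians set equal (adjusted p = 0.105, limma). MACS2 had no ChIP peak at PFK2 in either 4NQO group, and called input above ChIP in 3 of 3 YJM789 libraries. At EMT1 the YPD difference was called and the 4NQO difference was not, and at CDC33 the reverse held. With library medians set equal, EMT1 had -2.66, PFK2 -2.11, TPI1 -1.97 and CDC33 -2.28, all still past the threshold. The test of the difference between media was not rerun after division by the background pileup.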

How the results depend on the processing

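Regions called higher and lower in 4NQO numbered 9 and 43. They numbered 20 and 63 on the linear scale, 2 and 11 with empty values as 0, 25 and 22 with library medians set equal, 6 and 16 under the m2 set, 4 and 26 in a fit of the 2 groups alone, and 7 and 121 after division by the background pileup, an alternative chosen after seeing the data. Without YJM789 replicates 1 and 2, also chosen after seeing the data, the median difference was -0.04. That fit leaves 1 YJM789 library, too few for its counts to be compared. Leaving out 1 library gave 1 to 7 higher and 10 to 86 lower. The media difference was called higher in 5 and lower in 22. It was higher in 3 with empty values as 0. With medians set equal the counts were 7 and 11, and without 1 library 0 to 4 and 9 to 38. A replicate block gave 10 and 41. Same-numbered libraries of the 2 groups did not deviate together (correlations -0.011 to -0.035), and no library correlated best with its own number. Low correlations cannot show whether libraries of one number share a culture or batch. The tRNA pair YNCJ0011W and YNCJ0012W turned to 0.86 under m2. The SNQ2 summit pileup difference was 7.84, but -4.72 under m2 and -0.32 after division by background. Bound regions of S96-I775E, of YJM789 and shared by both were 14, 20 and 8 with a peak required in all 3 libraries, 69, 663 and 43 (42 counted over the YJM789 regions) with a peak in any 1, 8, 42 and 5 at a fold of at least 2, and 12, 125 and 9 at a −log10 q of at least 3. Without 1 library they ran from 16 to 31, from 21 to 273 and from 10 to 23. Of 1011 recomputed values of 52 named results, 758 kept direction and side of the threshold, 236 lost the call, 1, near PDR5 under m2, gained it and 1, the tRNA pair above, reversed. The other 15 changed sign without being called in either fit, at values from -0.36 to 0.83. They belong to SNQ2, both YRR1 regions, TBS1/APD1, TPO1, YLR179C, PDR5, EMT1 and YNCB0017C. Depth is unknown, so no counting error could be given.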
